A study of Mus musculus with 13 samples.

Results

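Cytosolic ribosomal protein genes were followed over 2 circadian cycles in the aorta of mice kept in the dark. The members were taken from the platform annotation by symbol. Each gene whose symbol begins with Rpl or Rps and a digit, or with Rplp, was included, and the S6 kinases (Rps6k) and pseudogenes were left out. This gave 33 genes of the 8251 that the array measures under a single symbol: 17 of the large subunit, counting the stalk protein Rplp0, and 16 of the small subunit. Where several probe sets name a gene, the brightest on average over the pools stands for it. Of the 33 genes, 24 passed the filter on low intensities (12 of each subunit), and 9 lay at or near the lower limit of measurement.

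The mice were of the C57BL/6 strain (written c57/Bl6 in the labels), with no engineered allele and no drug named, and neither age nor sex is stated in the sources used here. After 2 weeks of alternating light (12 h) and dark (12 h) the lights stayed off, and from 36 h later aortae were collected at 4 h steps spanning 48 h. The groups are 12 circadian times, CT18 to CT62, each a pool of 6 aortae from mice under this one regimen. CT18 was hybridised to 2 arrays, and the labels do not tell whether these came from the same pool. They were averaged and counted as 1 pool, and a difference between them can hold a difference between pools as well as between arrays. Each time thus counts as 1 pool, and the spread between animals was not measured. P-values therefore measure the scatter of single pools about a fitted term.

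Ribosomal proteins assemble with ribosomal RNA into a small subunit, which decodes the messenger RNA, and a large subunit, which joins the amino acids. Their messenger RNAs are among the most abundant of a cell, and most begin with a C followed by a run of C and T, the 5′ terminal oligopyrimidine (TOP) tract, through which mTOR and Larp1 regulate their translation. In mouse liver the translation of TOP messenger RNAs is known to follow the time of day. The arrays measure the amount of messenger RNA and not its translation.

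The transcription start carries the TOP tract, so the bases around it are shown here for members that hold a C and T run there and for members that do not. RefSeq's promoter table (build GRCm38.p6) matched 27 of the 33 genes. In each window of 30 bases the start is the 16th base, the strand is that of the gene, and capitals mark runs of C and T of 6 or more.
Rps10: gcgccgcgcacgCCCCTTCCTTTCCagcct
Rps18: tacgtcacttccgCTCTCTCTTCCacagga
Rps27: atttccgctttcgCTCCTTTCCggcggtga
Rpl7a: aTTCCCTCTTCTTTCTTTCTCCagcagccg
Rplp0: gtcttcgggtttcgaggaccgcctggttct
Rps13: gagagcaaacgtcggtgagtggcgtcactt
Rps4x: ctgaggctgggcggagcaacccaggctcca

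These windows lie at chr17:27635230-27635259 (Rps10, minus strand), chr17:33955651-33955680 (Rps18, minus), chr3:90213634-90213663 (Rps27, minus), chr2:26910792-26910821 (Rpl7a, plus), chr5:115559452-115559481 (Rplp0, plus), chr7:116334176-116334205 (Rps13, minus) and chrX:102189377-102189406 (Rps4x, minus). Each but that of Rpl7a spans the first base of the gene in RefSeq's gene table. The window of Rpl7a lies inside the gene, which begins at position 26910685 in that table. A C at the annotated start followed by 4 bases that are all C or T was found in 5 of the 27 members (18.5%: Rpl35a, Rpl38, Rps10, Rps18 and Rps27), against 3.01% of the 27025 genes of the table. A run of C and T of 6 or more that covers the start was found in 7 members (25.9%, with Rpl7a and Rps24 added), against 8.48% of all genes. No such run in a window says only that these letters are not there, since an annotated start can lie several bases from the start in use.

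Other motifs were searched, by the same rule for genes with several entries, in the 300 bases from 250 before each start. CCGGAAG, a core bound by ETS factors, was read on both strands and stood in 11 of 27 members (40.7%) against 9.93% of all genes. CACGTG, the E-box that the clock's activators bind and that reads the same on both strands, stood in 3 members (11.1%: Rpl13a, Rpl19 and Rps19) against 8.09%. TATAAA, read on the gene's strand, stood in 3 members (11.1%: Rpl39, Rplp0 and Rps28) against 9.77%. These motifs share no letters that force an overlap, and a match is a description of the sequence only.

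The tissue was checked against marker lists, by their summed intensity in a pool. Markers not kept failed the filter or had no probe set under a single symbol. Smooth muscle markers (6 of 8 kept) ran from 9968 at CT18 to 15610 at CT26, endothelial markers (8 of 8) from 1786 to 3235, and adipocyte markers (6 of 8) from 29950 to 37610. Markers of neighbouring tissues were also present. Skeletal muscle markers (12 of 12) ran from 6241 at CT54 to 32100 at CT34, atrial heart markers (5 of 6) from 3806 at CT30 to 12660 at CT42, and thymocyte markers (9 of 13) from 699 at CT42 to 4783 at CT54. Erythroid markers (3 of 4) ran from 7054 to 12320 and B cell markers (4 of 5) from 2119 to 3741. In such bulk pools, fewer cells of a type and less RNA per cell cannot be told apart. Control probe sets gave a 3′ to 5′ ratio of 1.64 to 2.21 for actin and 1.05 to 1.31 for Gapdh.

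No ribosomal protein gene followed a 24-h rhythm past the threshold. A cosine of 24 h was fitted with limma to the 12 pools, and p-values were adjusted by the Benjamini-Hochberg method over all 7453 probe sets kept. Of these probe sets 26 passed an adjusted p of 0.05, 0.349% of those tested, and 0 of the 24 members kept did. The smallest adjusted p of a member was 0.395 (limma). At an unadjusted p under 0.05, 2 of 24 members stood (Rps13 and Rps29) beside 9.96% of all probe sets. An ordinary F test for each probe set called 4 probe sets in all and 0 members, with 0 members at an unadjusted p under 0.05.

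For most members the fit without covariates also gave an approximate upper limit for the amplitude of a 24-h cosine. Of the 24 members, 18 had a mean log2 intensity of 10 or more (an intensity of 1024) and are called bright here. This division was chosen after the values were seen and carries no test. The fitted 24-h amplitude, the distance from mean to peak in log2 units, ran in these 18 from 0.026 (Rpl6) to 0.119 (Rpl37a), with a median of 0.0575. The median over the 695 bright probe sets of any gene was 0.0855, and over all probe sets kept 0.182. The approximate upper 95% limit of the amplitude lay between 0.144 (Rps19) and 0.314 (Rpl37a), which corresponds to a peak 1.22 to 1.55 times the trough. It is the amplitude plus a multiple of its SE taken from the t distribution. An amplitude cannot be negative, so such a limit is rough where the amplitude is near 0, as in Rpl6 (0.026 ± 0.0555). These limits belong to the fit without covariates. With the thymocyte, skeletal muscle and atrial markers as covariates, a setting that leaves fewer degrees of freedom, the median amplitude of the 18 was 0.124. The estimates of Rpl41 (0.302 ± 0.127) and Rps3 (0.235 ± 0.134) then lay beyond their limits of 0.216 and 0.197. The SE in this setting reached 0.243 (Rpl37a). Upper limits were not computed for it, so the limits above are not shown to hold there for the other members.

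**Figure D1:**
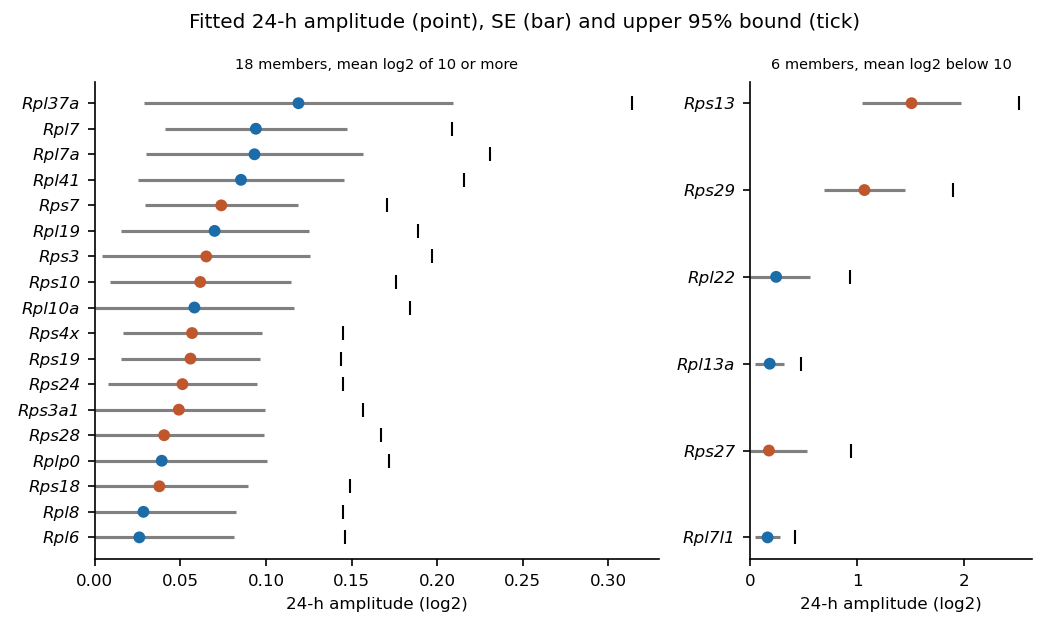
Fitted 24-h amplitude (x axis, log2 intensity from mean to peak) of each member kept, with large subunit and stalk members in blue and small subunit members in orange. Points are estimates, bars 1 SE (drawn down to 0 at most) and ticks the approximate upper 95% limit. The 18 bright members on the left have amplitudes of 0.119 or less, and on the right, on a wider scale, Rps13 and Rps29 stand at 1.51 and 1.07.

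The steadiest bright members changed little from pool to pool. Rps19 (94068_at), a small subunit protein needed for maturation of the small subunit's RNA, had the smallest SD of the members kept, 0.0816 (log2, over 12 pools). Its intensities from CT18 to CT62 were 3808, 4384, 4399, 3978, 4313, 4252, 4412, 4478, 4720, 4312, 4161 and 4122, a range of 1.24-fold with CT18 lowest and CT50 highest. Rps4x, an X-linked small subunit protein, lay between 5256 (CT50) and 6641 (CT38), with an SD of 0.0821. On its chosen probe set, 97696_r_at, Rps24 lay between 5810 (CT58) and 7160 (CT38). Its SD there was 0.0894 and its range, 1.23-fold, the narrowest of the members kept. A second kept Rps24 probe set, 93121_at, was dimmer and less steady. It lay between 90.78 and 260.3, with an SD of 0.488 and an r of 0.363 with the first over 12 pools. Rps7 lay between 4240 (CT30) and 5357 (CT62), with an SD of 0.102.

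Among large subunit genes, Rpl37a (93822_at) had the widest spread of the bright members, with an SD of 0.239. Its intensities were 1833, 2745, 2359, 1687, 2579, 2163, 2012, 2329, 3073, 2249, 2114 and 2272, so that it was low at CT18 and CT30 and high at CT22 and CT50. The highest was 1.82 times the lowest. Pools 24 h apart also differed: at CT26 and CT50, 1 circadian time, it stood at 2359 and 3073. Its 24-h amplitude was 0.119 ± 0.0901 (SE of the fit over 12 pools, limma adjusted p = 0.802).

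Rplp0 (101213_at) is the base of the stalk that recruits translation factors to the large subunit and is a common reference gene in quantitative PCR. Its intensities were 4878, 6251, 6137, 5096, 6465, 6536, 6409, 6335, 5981, 6678, 6370 and 6493. CT18 and CT30 were low, and the other 10 pools lay between 5981 and 6678. At circadian hour 18 the pools averaged 5640 ± 1080 and at hour 14 they averaged 6510 ± 30.1 (SD, n = 2 pools each). The 24-h amplitude was 0.0391 ± 0.0615 (limma adjusted p = 0.943).

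The other bright large subunit genes showed ranges of 1.30-fold to 1.43-fold. Rpl7, which binds the large subunit's RNA, lay between 4043 (CT50) and 5547 (CT38), with a median of 4652. Both pools of its circadian hour 14 were high, with a mean of 5440 ± 156 against 4260 ± 26 at hour 10 (SD, n = 2 pools each), and its amplitude was 0.0941 ± 0.053 (limma adjusted p = 0.7). Rpl7a lay between 2996 (CT18) and 4238 (CT34), with a median of 3938. Rpl41, whose protein is the shortest of the ribosome, lay between 10810 (CT18) and 14980 (CT50) on a probe set marked as shared by a gene family. Rpl6, Rpl8, Rpl10a and Rpl19 each had their lowest pool at CT18, at 2660, 2797, 1690 and 3556, and their highest at 3450, 3733, 2410 and 4783.

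The other bright small subunit genes were as narrow. Rps3, which lines the entry of the messenger RNA channel, lay between 2571 (CT18) and 3573 (CT38). Rps3a1 lay between 4766 (CT58) and 6115 (CT38). Both pools of its highest circadian hour, 14, were high, with a mean of 5870 ± 340. At its lowest hour, 10, the pools averaged 4840 ± 109 (SD, n = 2 pools each). The 24-h amplitude of Rps3a1 was 0.0491 ± 0.0501 (SE, limma adjusted p = 0.884). Rps10, Rps18 and Rps28 each had their lowest pool at CT18, at 3093, 4642 and 6858, and their highest at 4196, 6034 and 9270. Over the small subunit the 9 bright members had SDs of 0.0816 to 0.146, and over the large subunit the 9 bright members had SDs of 0.118 to 0.239.

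The SDs of the bright members lay towards the low end of those measured, and their intensities towards the high end. Their median SD was 0.127 at a median mean log2 of 12.13, and 17 of 18 (94.4%) had an SD under 0.2. Of the 695 bright probe sets of any gene, 68.9% had an SD under 0.2 and the median was 0.159, at a median mean log2 of 10.92. Of all 7453 probe sets kept, 21.7% had one and the median was 0.329. A further 39 probe sets list a member together with other genes or pseudogenes and so name no single gene. Of these, 35 were kept, 29 of them bright, and the bright ones had a median SD of 0.127 with 27 of 29 under 0.2. None of the 35 passed the 24-h, day, 12-h, thymocyte or skeletal muscle test in limma. At an unadjusted p under 0.05 these tests held 0, 1, 0, 2 and 1 of the 35, beside 9.96%, 7.54%, 5.6%, 8.04% and 3.25% of all probe sets.

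**Figure D2:**
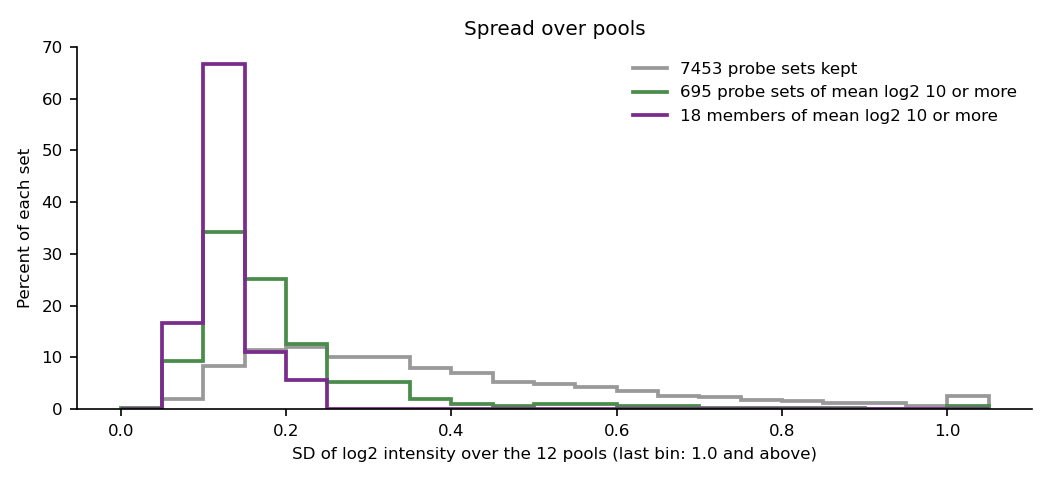
Share of each set (y axis, percent) by SD of log2 intensity over the 12 pools (x axis, bins of 0.05, the last open-ended) for all 7453 probe sets kept, the 695 of mean log2 10 or more, and the 18 bright members. The members lie between 0.0816 and 0.239, towards the low end of both larger sets.

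The bright members tended to move together. Over the 12 pools the median Pearson r of their 153 pairs was 0.525, and 90.2% of pairs were positive. The median over all pairs of the 695 bright probe sets was 0.123. The points are 12 arrays or array means that all genes share, along with their scaling, and the correlation is given as a description. On the deposited scale the median member was lowest at CT18, at -0.22 from its own mean in log2 units, where 0 of 18 stood above their mean. It stood at -0.159 at CT30 (2 of 18 above) and was highest at CT38, at 0.132 (16 of 18). From lowest to highest the median member moved by 0.352, or 1.28-fold. Of the 695 bright probe sets of any gene, 176 stood above their mean at CT18, 180 at CT30 and 292 at CT38. Of all 7453 probe sets kept, 4305, 4503 and 3784 did.

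**Figure D3:**
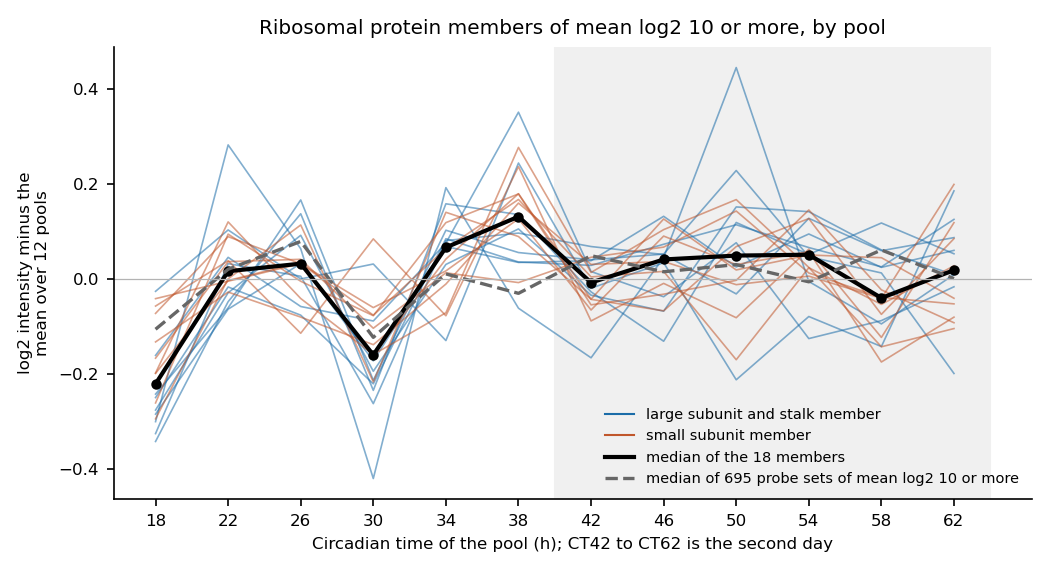
Log2 intensity minus each gene's mean over 12 pools (y axis) by circadian time (x axis, h, second day shaded) for the 18 bright members, with large subunit and stalk genes in blue and small subunit genes in orange. The black line is their median and the dashed line the median of the 695 bright probe sets. The black line lies below the dashed line at CT18 and above it at CT38, while single members can lie on the other side.

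Part of this profile depends on how the arrays are scaled, and part does not. Bright probe sets of any gene also lay low at CT18 and CT30 (medians of -0.105 and -0.122 from their means) but not high at CT38 (-0.0294). The median of all 7453 probe sets ran from -0.0566 at CT58 to 0.0882 at CT30. With arrays centred on their median the bright members lay at -0.28 at CT18, -0.284 at CT30 and 0.135 at CT38. After quantile normalization they lay at -0.0914 at CT18, -0.0152 at CT30 and 0.128 at CT38, with the lowest pool now CT58 (-0.0929). CT38 was thus highest for the 18 together under all 3 scalings, with 16, 16 and 17 of 18 members above their mean. The low value of CT30 nearly vanished under the last. As deposited, the small subunit members alone were highest at CT38 (median 0.168). The large subunit members were highest at CT50 (0.115), with 0.0974 at CT38.

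Other probe sets on the same arrays showed the same high pool, which is no separate measurement of that pool. The 29 bright probe sets that list a member with other genes were highest at CT38 under all 3 scalings, with 28, 28 and 29 of 29 above their mean. Some of these can bind the messenger RNA of a member already counted. CT38 is 1 array, and in the pool taken at the same circadian time a day later, CT62, 11 of 18 bright members stood above their mean (median 0.0194) on the deposited scale. With centred arrays 17 of 18 did at CT62 (median 0.126), and after quantile normalization 12 of 18 (0.0385), so how far the second day repeated the high value depends on the scaling. Sorted by circadian hour, with 2 pools each, hour 14 (CT38 and CT62) held the highest mean for 9 of 18 bright members as deposited and for 11 under each of the other scalings. Hour 18 (CT18 and CT42) held the lowest mean for 11, 10 and 10, while at CT42 alone 9, 9 and 3 of 18 stood above their mean. These counts by hour were not made for other probe sets, so no share over the array stands beside them.

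The low value of CT18 was on both of its arrays. Against the mean of the other 11 pools the median bright member stood at -0.177 on array 1 (18 of 18 members below) and at -0.319 on array 2 (17 of 18 below), in log2 on the deposited scale. The counts against the other 11 pools were not made for other probe sets. Array 2 was lower than array 1 in 17 of 18 bright members, with a median difference of -0.105. The range of the median member over the pools was 0.352. Among the 695 bright probe sets of any gene, array 2 was lower in 490 (median difference -0.0716). Among all 7453 kept it was lower in 3371 (median difference 0.0171). Tissue markers moved at the same pools. Skeletal muscle markers summed to 25300 at CT18, second to CT34, where 14 of 18 members stood above their mean. Thymocyte markers summed to 4328 at CT38 and 3824 at CT18, where the members were highest and lowest. Atrial markers summed to 11750 at CT38, second to CT42 (12660), where 9 of 18 members stood above their mean. The part of any of these tissues in the low value of CT18 or the high value of CT38 was not tested.

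**Figure D4:**
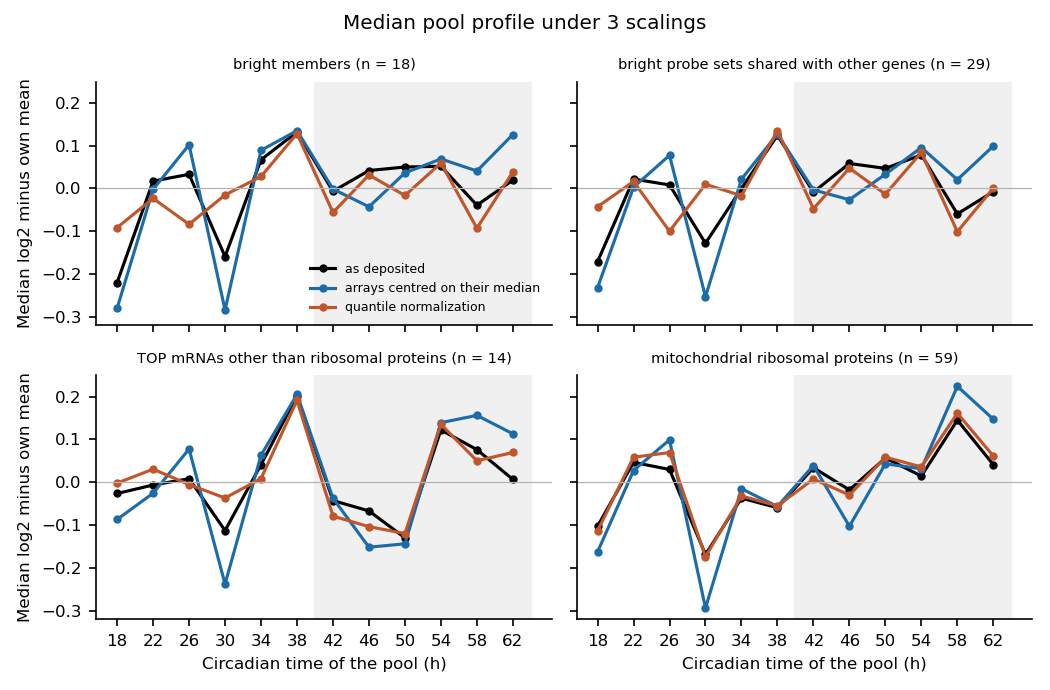
Median log2 intensity minus each gene's own mean (y axis) by circadian time (x axis, h, second day shaded) under 3 scalings, for the 18 bright members, 29 bright probe sets shared with other genes, 14 TOP genes that are not ribosomal proteins, and 59 mitochondrial ribosomal proteins. CT38 is highest in the first 3 panels under each scaling (0.128 to 0.135 for the members), and CT58 is highest in the last (0.145 as deposited).

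The slope on the tissue markers was tested in each member. On the mean thymocyte level, 62 probe sets passed (0.832%) and 0 of 24 members did, with a smallest adjusted p of 0.393 (limma). At an unadjusted p under 0.05, 2 members stood (Rps29, with a slope of 0.888 ± 0.314, and Rps3a1, with 0.0864 ± 0.034, log2 per log2, SE) beside 8.04% of all probe sets. On the mean skeletal muscle level, 36 probe sets passed (0.483%) and 0 of 24 members did, with 0 at an unadjusted p under 0.05 beside 3.25% of all and a smallest adjusted p of 0.997 (limma). Ordinary tests called 66 and 27 probe sets for the 2 tissues, with 0 members in each and 2 and 0 at an unadjusted p under 0.05.

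No member differed between the days past the threshold. The second day (CT42 to CT62) was set against the first in limma with the 24-h terms as covariates, and 0 of 7453 probe sets passed (0%), members included. At an unadjusted p under 0.05, 1 member stood (Rpl22) beside 7.54% of all probe sets. An ordinary test called 0 probe sets, and 1 member stood at an unadjusted p under 0.05. With the 6 circadian hours as a block, so that pools 24 h apart form pairs, limma called 0 of 7453 (0%) and 0 members. At an unadjusted p under 0.05 this fit held 2 members (Rpl22 and Rpl6) beside 8.06% of all probe sets. The median day difference of the bright members was 0.0575 as deposited, 0.0943 with centred arrays and -0.000136 after quantile normalization, so its sign depends on the scaling. Rpl6 was higher on the second day by 0.146 ± 0.069 (5 of 6 pairs 24 h apart, limma adjusted p = 0.67), and Rpl8 by 0.127 ± 0.0697 (4 of 6 pairs, limma adjusted p = 0.691).

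A 12-h component, fitted over the 24-h terms, passed for 0 of 7453 probe sets (0%). At an unadjusted p under 0.05, 2 members stood (Rpl37a and Rps13) beside 5.6% of all probe sets, and the smallest adjusted p of a member was 0.883 (limma). Rpl37a had a 12-h amplitude of 0.222 ± 0.0709 (SE). That of Rps13 was 1.08 ± 0.38 (limma adjusted p = 0.888), and it passed when CT34 was left out (limma adjusted p = 0.0396). How many of all probe sets passed in the fit without CT34 was not counted, so no share stands beside this call. An ordinary test called 1 probe set and 0 members, with 0 members at an unadjusted p under 0.05.

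The other 6 members kept were dim and varied more, with SDs of 0.225 to 1.65. Their median pairwise r was -0.154 over 15 pairs. Rps13, a small subunit protein at the interface of the subunits, had the widest spread. Its intensities from CT18 to CT62 were 646.4, 410, 344.1, 458.2, 475.9, 36.73, 471.4, 456.1, 498.8, 300.1, 36.73 and 36.73. It lay at the floor of 36.73 at CT38, CT58 and CT62 and between 300.1 and 646.4 elsewhere, so the highest pool was at least 17.6-fold above the floor.

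Both pools of circadian hour 14 were at the floor for Rps13, and at hour 18 they averaged 559 ± 124 (SD, n = 2). The pools of hour 10 stood apart, with 475.9 at CT34 and the floor at CT58. The fitted 24-h amplitude was 1.51 ± 0.464 with a peak at circadian hour 0.3 (limma adjusted p = 0.395). The duplicate CT18 arrays read 428.9 and 974, a difference of 1.18 in log2. Its probe set, 93027_r_at, carries the suffix that the maker gives to sets picked under relaxed design rules, as does that of Rps24.

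Rps27 (96301_at), a zinc finger protein of the small subunit, read at 2 levels. Its intensities were 234.6, 122.3, 136.2, 544.1, 516.1, 148, 508.5, 493.8, 404.6, 130.7, 147.5 and 127.8. CT30, CT34, CT42, CT46 and CT50 lay between 404.6 and 544.1, and CT22, CT26, CT38, CT54, CT58 and CT62 between 122.3 and 148. The 2 CT18 arrays read 97.61 and 563.8, 1 near each level, a difference of 2.53 in log2 that exceeds the whole range of the 12 pools (4.45-fold). The 24-h amplitude was 0.178 ± 0.356 (limma adjusted p = 0.963).

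Rps29 (162335_at), another small zinc-binding protein of the small subunit, read 222.2, 261.4, 36.73, 101.1, 270.2, 291.9, 36.73, 40.93, 36.73, 200.3, 183.2 and 166.5. It lay at the floor at CT26, CT42 and CT50, both pools of circadian hour 2 among them, and the highest pool was at least 7.95-fold above the floor. Its amplitude was 1.07 ± 0.381 with a peak at hour 12.1 (limma adjusted p = 0.495). A second Rps29 probe set, 98523_at, gave 0.637 ± 0.226 with the peak at hour 13.6 (limma adjusted p = 0.492), and its r with the first was 0.488 over 12 pools. The CT18 arrays read 324.9 and 152 on the first.

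Rpl22 (92856_at), a large subunit protein that also binds other RNAs, had the largest day difference of the members. It read 78.34, 162.8, 265.4, 87.88, 99.98 and 150.7 on the first day and 99.73, 51.36, 51.71, 51.41, 65.71 and 36.73 on the second. The second day was lower in 5 of 6 pairs 24 h apart, with a mean difference of -1.18 ± 0.322 in log2 (SE, limma adjusted p = 0.563), with CT62 at the floor. The CT18 arrays read 80.97 and 75.79. A second Rpl22 probe set, 92857_at, had 6 pools at the floor and an r of 0.399 with the first, and its day difference was -0.504 (limma adjusted p = 0.708).

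**Figure D5:**
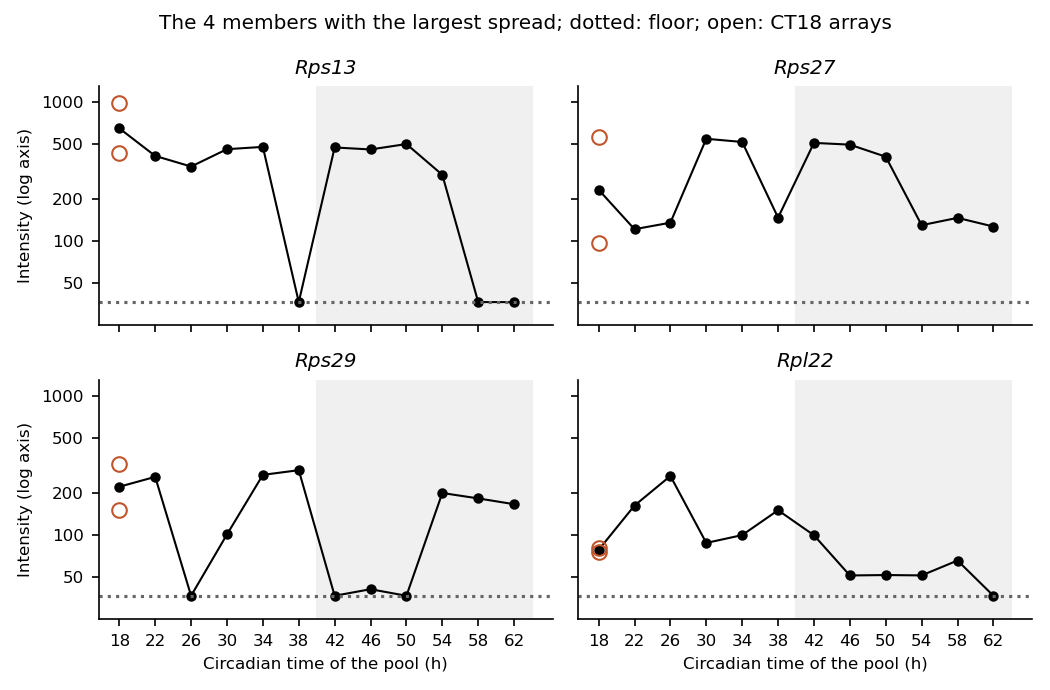
Intensity (y axis, log scale) by circadian time (x axis, h, second day shaded) for the 4 members with the largest SD; filled points are pools, open circles the 2 CT18 arrays, and the dotted line the floor of 36.73. Rps13 drops to the floor at CT38, CT58 and CT62, Rps27 sits at 2 levels with a CT18 array near each, Rps29 reaches the floor at CT26, CT42 and CT50, and Rpl22 is lower on most of the second day.

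The last 2 dim members stayed above the floor. Rpl13a, known also for silencing inflammatory messenger RNAs outside the ribosome, lay between 109.5 (CT50) and 238.8 (CT38), with a median of 180.5 and an amplitude of 0.185 ± 0.134 (limma adjusted p = 0.792). Rpl7l1, a paralogue of Rpl7 that is not a core ribosomal protein, lay between 64.26 (CT50) and 111.9 (CT18), with a median of 78.39 and an amplitude of 0.165 ± 0.12 (limma adjusted p = 0.79). Its CT18 arrays read 90.73 and 138.

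The 9 members not kept gave little signal. Rpl35a and Rps15 were at the floor in 12 of 12 pools, and the deposited values of Rpl35a were below 0 on 13 of 13 arrays, from -320.9 to -90.96. Rpl32, Rpl39l, Rps20 and Rps27l were at the floor in 10 of 12 pools each, Rps14 in 8, and Rpl38 and Rpl39 in 7. The highest pool among these genes was Rps14 at CT30, with 114. Rpl39l and Rps27l are paralogues of Rpl39 and Rps27, and the other 7 encode core ribosomal proteins. A value at the floor bounds the signal of that probe set and gives no level of the gene.

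Genes with several probe sets showed how far a probe set can matter. Rps28, a small subunit protein, read alike on 98085_f_at and 100758_at (r = 0.919 over 12 pools), with ranges of 6858 to 9270 and 4112 to 5455, while 98086_r_at was at the floor in 8 pools. For Rps4x the chosen probe set lay between 5256 and 6641, and of 4 others 3 were at the floor in 12 pools and 162244_r_at in 9 (r = -0.434). The deposited values of 161654_r_at ran from -806.5 to -420.1. The second probe sets of Rpl7 (97697_at) and Rpl19 (161961_at) were at the floor in 11 and 9 pools, with r of 0.0825 and 0.295. The second of Rpl10a (161327_f_at) was well measured, between 787.2 and 1234, yet its r with the first was 0.225.

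Other parts of the translation machinery likewise held no gene past the 24-h, day or 12-h threshold in limma. The counts at an unadjusted p under 0.05 for the 24-h term are given with each list, beside 9.96% of all probe sets. A listed gene was not kept if it failed the filter or had no probe set under a single symbol. The array held 2 ribosomal proteins under other symbols, 16 other TOP genes and 25 initiation and elongation factors this way. It likewise held 34 ribosome biogenesis factors, 61 mitochondrial ribosomal proteins and 12 mTOR and S6 kinase signalling genes. Of ribosomal proteins under other symbols, 1 of 6 listed genes was kept, the laminin receptor gene Rpsa (amplitude 0.087 ± 0.0856, limma adjusted p = 0.874), and 0 stood. Of TOP messenger RNAs other than ribosomal proteins, 14 of 17 were kept and 1 stood (7.14%), the chaperonin subunit Cct4 (0.215 ± 0.0622, limma adjusted p = 0.353). Eif3f, an initiation factor subunit, came next (0.527 ± 0.196, limma adjusted p = 0.527).

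The TOP genes also had their highest median at CT38, under all 3 scalings. It was 0.202 as deposited, 0.205 with centred arrays and 0.191 after quantile normalization, with 11 of 14 above their mean in each. At CT54, the pool highest in thymocyte markers, the median was 0.122 with 12 of 14 above. CT38 was second to CT54 in these markers. On the thymocyte slope 3 of the 14 TOP genes stood at an unadjusted p under 0.05 (limma), beside 8.04% of all probe sets, and 0 passed the threshold. The part of thymocytes in the TOP profile was not tested. Mitochondrial ribosomal proteins, which build the separate ribosome of the mitochondrion, did not share the high pool. Of 61 listed 59 were kept, their median at CT38 was -0.0597 (23 of 59 above), and CT58 was highest under all 3 scalings (0.145 as deposited, 43 of 59 above). The difference between the lists at CT38 was not tested, as it was chosen after the values were seen.

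Within the mitochondrial list 3 genes (5.08%) stood at an unadjusted p under 0.05 for the 24-h term, led by Mrpl43 (0.23 ± 0.0637, limma adjusted p = 0.33) and Mrpl18 (0.158 ± 0.0489, limma adjusted p = 0.402). Of initiation and elongation factors 21 of 31 were kept and 3 stood (14.3%), led by Eif5, a GTPase activator at the start codon (0.176 ± 0.049, peak at hour 22.8, limma adjusted p = 0.335), and Eif4g2 (0.3 ± 0.0852, peak at hour 13.5, limma adjusted p = 0.347). Of ribosome biogenesis factors 26 of 37 were kept and 3 stood (11.5%), led by the ATPase Nvl (0.27 ± 0.0717, limma adjusted p = 0.309) and nucleolin, Ncl (0.218 ± 0.0629, limma adjusted p = 0.353). Of mTOR and S6 kinase signalling genes 11 of 20 were kept and 2 stood (18.2%), Akt1 (0.316 ± 0.0869, peak at hour 7.5, limma adjusted p = 0.329) and Akt2 (0.416 ± 0.126, peak at hour 6.5, limma adjusted p = 0.388).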

How the data were processed

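Total RNA of pooled aortae was hybridised to 13 one-colour oligonucleotide arrays. The authors deposited 1 linear intensity per probe set and array. The sources used here do not name its software or scaling. The mean after trimming 2% at each end was 200.2 on each array, so the scale was kept. Between 21.3% and 24.2% of an array's intensities were at or below 0. Of 12488 probe sets, 66 controls were left out. The platform annotation gave 1 gene for 10833 of the 12422 left, several for 396 and none for 1193. RefSeq's table (GRCm38.p6) held 10817 of the 10833 and changed 0 symbols; the array design's build is not given. Rps4l was left out as a transcribed pseudogene.

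Values below 36.73 (20th percentile of positive intensities) were raised to that floor, and log2 values were used. The CT18 arrays were averaged. Probe sets with a mean at or above the 40th percentile (log2 of 5.6, intensity 48.5) were kept, 7453 in all. Between 4.01% and 6.02% of these were at the floor on an array. limma 3.58.1 (R 4.3.3; eBayes with trend, Benjamini-Hochberg over all probe sets kept, threshold 0.05) tested the 24-h, day, 12-h and marker terms with 9, 8, 7 and 10 residual degrees of freedom. The procedure was tested on simulated data. The number of arrays limits the precision. Alternatives changed the floor, filter, scaling, probe set, covariates, test and pools.

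The members and lists were chosen with earlier results of these data known. Genes named were members with the smallest p or the largest or smallest SD, at the floor or not kept, stalk proteins, paralogues, genes with discordant probe sets, and 2 per other list by 24-h p; other bright members complete the family.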

Additional observations from a re-analysis of the deposited data

How the results depend on the processing

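The counts of members past the threshold stayed at 0 for the 24-h, day, thymocyte and skeletal muscle tests under all 26, 27, 27 and 27 alternatives run. For the 12-h component the count was 0 to 1 over the 14 fits that left out a pool or a CT18 array. In these, 1 member, Rps13, passed without CT34 (limma adjusted p = 0.0396, range over its alternatives 0.0396 to 1). The number of all probe sets past the threshold in that fit was not counted. The median 24-h amplitude of the 24 members was 0.0675, or 0.134 with the thymocyte, skeletal muscle and atrial markers as covariates, and 0.0594 to 0.094 over the fits that left out a pool. The highest minus lowest pool of the members' mean profile was 0.316. It was 0.392 with the floor at the 10th percentile, 0.273 with it at the 30th, 0.376 with second probe sets where there is one, 0.225 with the probe sets that list a member with other genes (chosen after seeing the data), and 0.269 to 0.316 with a pool or array left out, the lowest without CT34. Causes of these shifts were not tested. The amplitude of Rps13 ran from 1.17 to 2 and that of Rps29 from 0.637 to 1.48, and neither passed. The day test with circadian hour as a block, which pairs pools 24 h apart (chosen after seeing the data), also gave 0 members. No paired analysis by replicate number was run, as the time points share only number 1. Values at the floor limit the 9 members not kept and, of the 6 dim members, Rps13, Rps29 and Rpl22. Rps27, Rpl13a and Rpl7l1 were dim but had no pool at the floor, and the CT18 arrays of Rps27 differed by 2.53 in log2.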
